A study of Rattus norvegicus with 24 samples.

Results

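Immediate early genes are switched on within minutes of a stimulus without new protein synthesis, and 9 of them (Fos, Fosb, Junb, Jund, Egr1, Ier2, Arc, Npas4 and Nr4a1) were followed here among the 32881 genes shared by all count files of single dorsal root ganglion (DRG) neurons. The 9 were chosen by name, with earlier results of these data known, and all 9 were found in the files. The question was how their levels varied between samples, between sham and injured rats and between neuron types. It was also asked whether they moved with Atf3 and Jun, which are used as markers of injured sensory neurons. Neither marker passed the test between injured and sham rats here.

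In neurons, calcium entry and growth factor receptors act through MAP kinases and CREB on serum response elements and cyclic AMP response elements (CRE) of these genes. Fos, Fosb, Junb and Jund encode subunits of the AP-1 transcription factor, Egr1 a zinc finger factor, Nr4a1 an orphan nuclear receptor, Npas4 a factor bound to neuronal activity, Arc a synaptic protein, and Ier2 a small nuclear protein. Enzymatic dissociation at warm temperature is itself known to raise several of them in many tissues, so that a level in an isolated neuron can stem from the living animal or from the time after its death. The same protocol text, with warm collagenase and trypsin, was given for all samples, and nothing else was stated on how the libraries deposited later were dissociated. No group without dissociation was measured, so both sources cannot be told apart from the levels alone.

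Male Sprague-Dawley rats were operated on the left sciatic nerve; their age and genotype were not given. In spared nerve crush (SNC) a crush injured the tibial and the common peroneal branch while the sural branch stayed intact, while in sham surgery the nerve was only exposed. The labelled groups held 4 sham DRG samples and 4, 3 and 5 DRG samples at 1, 3 and 7 d after SNC. Their neurons carried a dye injected into a nerve branch before surgery, and crushed and uncrushed neurons were pooled here since the dye of each cell was not used. A further 7 sham libraries were deposited later, with 3 at 0 d, 2 at 1 d, 1 at 3 d and 1 at 7 d, and are called added sham. In them dye labelling, library series and sequencing run differ together from the labelled neurons and cannot be told apart. The rats behind each DRG sample were not given. At least 5 rats per time point were stated, more than the 4 and 3 samples at 1 and 3 d, so a sample need not be 1 rat, and p-values measure the spread between these samples, which may be technical. Year of reverse transcription went with the groups. In the earlier year were 3 of 4 sham samples (Xin, 4 and 10) and 3 of 5 samples at 7 d (S, 8 and 9), and in the later year sham sample 18 and all samples at 1 and 3 d. Samples 17-1, 17-2, 17-3, 19-1 and 19-2 share a date of reverse transcription, as do samples 4 and 8, and samples 10 and 9. Samples Xin and S were sequenced on an earlier date than the other labelled samples. A total of 1433 of 1464 cells passed quality control, 930 labelled (median 239286 UMIs per cell) and 503 added (median 340145). The 24 libraries drew on the same 96 cell names, each found in more than 1 library, and no cell had the values of another. Summed UMIs per sample ranged from 4002503 to 40732975.

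The neurons were checked against marker genes. The summed level of 6 neuronal markers lay between 6593 and 9148 UMIs per 1000000 (CPM) in labelled samples and between 5194 and 6082 CPM in added samples. The sum of 8 glial markers ranged from 773 to 2335 CPM in labelled and from 815 to 1366 CPM in added samples, while 7 macrophage markers reached at most 53.8 CPM and 5 endothelial and mural markers at most 15.8 CPM. The sum of 4 fibroblast markers was at most 13.9 CPM in labelled and 41.4 CPM in added samples. The highest glial sum belonged to the sham sample Xin, which held 24 cells, 7 of them in a cluster high in glial genes, and stood apart in several members. Values without it are given beside the comparisons with sham.

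Promoter sequences are shown for Fosb, Junb and Jund because Jund was called between the sham groups and Fosb and Junb between cells high and low in Atf3, although no test compared the 3 genes with each other. The sequences are the 250 bases before the RefSeq transcription start on GRCr8 (the counts were made on Rnor_6.0), and 7 of the 9 members had an entry. Capitals mark the CRE (TGACGTCA), its core (TGACG or CGTCA) and the EGR site (among others GCGTGGGCG). Each motif was searched on both strands, with cores counted also inside a full CRE. The lines give Fosb (chr1:88089185-88089434, minus strand), Junb (chr19:40080876-40081125, plus strand) and Jund (chr16:18769772-18770021, minus strand), each 5′ to 3′.
Fosb: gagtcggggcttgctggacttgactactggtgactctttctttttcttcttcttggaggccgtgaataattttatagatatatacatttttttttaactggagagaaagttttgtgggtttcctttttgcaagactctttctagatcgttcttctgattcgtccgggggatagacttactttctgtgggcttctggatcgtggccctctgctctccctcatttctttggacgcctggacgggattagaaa
Junb: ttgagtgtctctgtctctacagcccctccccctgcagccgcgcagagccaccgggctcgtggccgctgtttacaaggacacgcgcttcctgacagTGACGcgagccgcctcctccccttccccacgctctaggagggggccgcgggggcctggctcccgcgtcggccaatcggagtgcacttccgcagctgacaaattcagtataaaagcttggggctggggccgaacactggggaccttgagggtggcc
Jund: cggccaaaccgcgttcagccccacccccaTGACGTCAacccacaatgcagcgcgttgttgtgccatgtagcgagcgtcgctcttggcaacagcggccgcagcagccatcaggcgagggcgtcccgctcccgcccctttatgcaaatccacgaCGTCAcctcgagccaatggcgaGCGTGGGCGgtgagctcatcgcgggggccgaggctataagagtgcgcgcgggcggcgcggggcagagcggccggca

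The Jund window held a full CRE 221 bases and a separate core 98 bases before the start, with an EGR site at 76 bases. Junb held 1 core, 155 bases before the start, and Fosb held no match to any motif searched. Of the other members, Ier2 held a CRE at 66 bases, Egr1 held 2 CArG boxes (the serum response element core) at 105 and 83 bases, and Nr4a1 held 4 cores and an EGR site. Among all 33469 promoters of this length, 1.59% held the CRE, 18.2% a core, 4.05% an AP-1 site (TGACTCA or TGAGTCA), 1.497% a CArG box and 2.85% an EGR site. No member promoter held the AP-1 site. A match is a description of letters and not of a bound factor.

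Fos was the most abundant member in labelled neurons, and Jund in added neurons. Each UMI counts 1 molecule at its 3′ end, so that CPM of different genes can be set side by side. The median over the 16 labelled samples was 153 CPM for Fos, 69.1 for Jund, 54.3 for Junb, 47.5 for Fosb, 14.7 for Egr1, 7.74 for Ier2, 5.24 for Nr4a1 and 2.42 for Arc. The ranges of any neighbours in this order overlapped between samples. Within a sample, Fosb was above Egr1 in 16 of 16 samples, Fos above Jund in 15 and Egr1 above Ier2 in 14, whereas the order was least steady for Jund above Junb (11) and Ier2 above Nr4a1 (10). Over the 7 added samples the medians were 234 CPM for Jund, 208 for Fos, 114 for Fosb, 94.9 for Junb, 82.0 for Egr1, 15.2 for Nr4a1, 9.49 for Ier2 and 6.80 for Arc.

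Npas4 was almost absent. It had 15 UMIs in 5 of 1433 cells, in 1 of 715 SNC cells, in 4 of 503 added cells and in 0 of 215 labelled sham cells, which allows a share of cells with a UMI of up to 1.40% by counting error alone. Of the 15 UMIs, 9 were in 1 cell of the added sample S2. No statement on Npas4 between groups was possible at this depth, and its counts were too low to be tested in any comparison.

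Most cells held Fos. The share of cells with at least 1 Fos UMI had a median of 89.0% over labelled and 96.9% over added samples, against 59.5% and 94.3% for Egr1 and 27.2% and 72.9% for Nr4a1. With every cell thinned to 20000 UMIs, these medians were 70.8% and 83.7% for Fos, 20.7% and 63.8% for Egr1 and 7.10% and 18.9% for Nr4a1. Expression was uneven among cells. The 10% of cells with most Fos UMIs held a median of 46.3% of them in labelled and 30.9% in added samples, and for Nr4a1 83.8% and 50.9%. Jund was the most even member, with 35.6% and 24.0%.

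In sham, Fos measured 127 CPM in sample 10, 219 in sample 18, 92.7 in sample 4 and 291 in sample Xin. The level was 153, 108, 228 and 186 CPM in the 4 samples at 1 d after SNC, 222, 106 and 196 CPM in the 3 samples at 3 d and 152, 197, 83.6, 94.996 and 80.7 CPM in the 5 samples at 7 d. The 4 groups overlapped, and sham alone spanned nearly the whole range. At 7 d both samples of the later year (152 and 197 CPM) were above the 3 of the earlier year. Added sham measured 211, 196 and 224 CPM at 0 d, 208 and 213 CPM at 1 d, 79.8 CPM at 3 d and 194 CPM at 7 d, all within the labelled range or within 1 CPM of it.

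The other members had wide and overlapping ranges in the labelled groups. Fosb ranged from 43.6 to 116 CPM in sham and from 15.5 to 71.5 CPM after SNC. Junb spanned 37.5 to 88.9 CPM in sham and 39.7 to 91.6 CPM after SNC, Jund 56.7 to 65.3 CPM and 43.5 to 106 CPM, and Egr1 9.44 to 30.0 CPM and 5.81 to 43.2 CPM. Low members were Ier2, at 4.81 to 24.5 CPM in sham and 4.14 to 15.2 CPM after SNC, Nr4a1, at 4.17 to 17.7 CPM and 1.81 to 29.1 CPM, and Arc, at 0.75 to 2.51 CPM and 0.08 to 8.16 CPM. Sample Xin was the highest sham sample in Fos, Fosb, Junb, Egr1, Ier2 and Nr4a1, and the lowest in Jund. Without it the sham mean of Fos was 146 ± 65.4 CPM (SD, n = 3) in place of 182 ± 90.0 CPM (n = 4), and that of Ier2 was 5.34 ± 0.55 in place of 10.1 ± 9.58 CPM.

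No member changed after SNC by the test across genes. The quasi-likelihood test of edgeR with Benjamini-Hochberg adjustment over 14239 genes called 0 of the 8 members tested at 1, 3 or 7 d, and 0 genes in all (0% of genes; DESeq2 called 9, 1 and 0 genes, none of them a member). At an unadjusted p under 0.05 were 0 members at 1 d (1243 genes, 8.73%), 1 at 3 d (594 genes, 4.17%, with 1.88% higher) and 3 at 7 d (476 genes, 3.34%, with 2.04% lower). At 3 d this was Jund, with a log2 fold change of 0.55 (SE 0.22). At 7 d these were Fosb, Nr4a1 and Egr1, with log2 fold changes of −1.26 (SE 0.40), −1.18 (SE 0.56) and −0.86 (SE 0.41). The adjusted p by edgeR was 0.97 for Jund at 3 d and 1.00 for the other 3. The 7 d value of Fosb was −0.73 without cells of the glial-high clusters and 0.68 in PEP1-like neurons alone, and between −1.51 and −0.80 with any 1 sample left out. Without sample Xin the 7 d values were −0.80 for Fosb, −0.72 for Nr4a1 and −0.55 for Egr1.

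Fos differed from sham by −0.22 (SE 0.37), −0.12 (SE 0.40) and −0.66 (SE 0.35) at 1, 3 and 7 d on the log2 scale. Without sample Xin these values were 0.15, 0.26 and −0.29, so that 1 library turned the direction at 1 and 3 d. Fitted with the reverse transcription year as a term they were −0.78, −0.68 and −0.86, and none of the 8 members was called at any time. The other values at 1, 3 and 7 d were −0.46, −0.56 and −1.26 for Fosb, 0.02, −0.38 and −0.33 for Junb, and 0.28, 0.55 and 0.14 for Jund. Egr1 was at 0.19, −0.26 and −0.86, Nr4a1 at 0.24, −1.03 and −1.18, Ier2 at 0.16, −0.30 and −0.77, and Arc at 1.31, 0.17 and 0.90. Of these 24 values, 4 changed sign with the year as a term and 12 in PEP1-like neurons alone. The median over the 8 members was 0.18, −0.28 and −0.72, beside −0.0058, −0.0049 and −0.0061 over all genes tested. Atf3 (−0.21, −0.23 and −0.17) and Jun (−0.45, −0.38 and −0.27) did not pass the test either, and without sample Xin Atf3 was at 0.20, 0.18 and 0.25. In labelled sham, Atf3 was at 364 to 950 CPM, against 371 to 645 CPM after SNC, so that Atf3 was as high in the labelled sham neurons as after SNC. The other lists gave no call. Of 34 other immediate early genes tested, 5 were higher at an unadjusted p under 0.05 at 1 d, 1 at 3 d and none at 7 d (1 lower). Those with the lowest p at 1 d were Ier3, Rhob and Klf4, with Spry2, Dusp1 and Spry1 among the MAP kinase feedback genes and Crem, Srf and Crebbp among the upstream factors. Of 10 heat shock genes, 3 were lower at an unadjusted p under 0.05 at 1 d (Hsp90aa1, Hspe1 and Hspa8), 1 at 3 d and 0 at 7 d.

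Added sham differed from labelled sham in 3 of the 8 members tested. Jund, an AP-1 subunit that is present at rest in many cells, lay at 60.6, 65.3, 64.3 and 56.7 CPM in the labelled sham samples and at 257, 255, 118, 226, 181, 289 and 234 CPM in the added ones. Egr1 lay between 9.44 and 30.0 CPM in labelled sham and between 38.3 and 112 CPM in added sham, and Arc between 0.75 and 2.51 CPM and between 2.09 and 17.5 CPM. Jund and Egr1 did not overlap between both sham groups, while Arc did, and the share of all genes without overlap was not counted. By edgeR with Benjamini-Hochberg adjustment, the log2 fold change was 1.74 (SE 0.23, adjusted p = 0.00014) for Jund, 1.89 (SE 0.36, adjusted p = 0.0013) for Egr1 and 2.10 (SE 0.59, adjusted p = 0.013) for Arc. In this comparison 6415 of 15791 genes were called (40.6%, with 24.2% higher), so that 3 of 8 members is a share close to the background.

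The remaining 5 members did not pass the test. Fosb was higher by 0.62 (SE 0.25) on the log2 scale (adjusted p = 0.061 by edgeR), and by 1.00 (adjusted p = 0.00091, with 35.6% of genes called) without sample Xin, which alone decided the call. Nr4a1 differed by 0.75 (SE 0.49), Junb by 0.34 (SE 0.30), Fos by −0.09 (SE 0.32) and Ier2 by −0.27 (SE 0.54). Without sample Xin these were 1.13, 0.51, 0.20 and 0.63, so that Fos and Ier2 turned direction, and none was called. The median of all genes was 0.15 in this comparison, and that of the members 0.69. Against the single labelled sham sample of the later year of reverse transcription, which is assumed to vary like the other samples, Jund (1.54), Egr1 (1.38) and Arc (1.46) kept their direction and were no longer called. Within NF-like neurons alone, with only the larger NF-like cluster of labelled cells used, Egr1 was higher by 3.69, Nr4a1 by 3.13 and Arc by 2.97. Fosb was higher by 2.33, Junb by 1.89 and Jund by 1.53. All 6 were called by edgeR, where 25.5% of genes were called. Within SST-like neurons the calls were Egr1 (2.28), Jund (2.27), Nr4a1 (2.21) and Fosb (1.93), with 31.8% of genes called. Both restrictions were chosen after seeing the data. With the glial-high clusters left out, Fosb (1.70) and Nr4a1 (1.74) were called and Fos was at 0.57, with 44.8% of genes called. This removed 137 of 503 added but 13 of 215 labelled sham cells. The added cluster was also high in 5 of 7 markers of peptidergic nociceptors.

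The lists around the members were split. Of 36 other immediate early genes tested, 11 were called higher and 7 lower. Higher were Nr4a2, Nr4a3, Egr4, Rhob, Homer1, Nptx2, Sik1, Klf4, Gadd45b, Maff and Ccn2, and lower were Gadd45a, Gadd45g, Nfil3, Trib1, Rgs2, Nfkbia and Btg2. Nr4a2 and Nr4a3, the relatives of Nr4a1, rose by 2.08 and 3.21 on the log2 scale. Of 12 MAP kinase feedback genes, which damp the pathway that induces the members, 6 were called higher (Spry1, Spry2, Spry4, Dusp5, Dusp8 and Dusp10) and Dusp1 lower. Among 29 upstream factors, 10 were higher, with Srf, the factor of serum response elements, at 2.32, and 5 lower, with Creb1 at −0.91. All 7 injury genes tested were lower in added sham, with Atf3 at −2.06 and Jun at −1.18. Of 10 heat shock genes, 2 were called higher (Hspa1b and Hsph1) and 5 lower, with Hspb1 at −2.01 and Hsp90aa1 at −1.21. Fibroblast markers moved with the groups (2.72 to 13.9 CPM in labelled and 6.14 to 41.4 CPM in added sham), and their part in these differences was not tested.

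Within added sham, days 1 to 7 were compared with day 0, and no gene of 16175 was called by edgeR (0%; 1503 genes, 9.29%, at an unadjusted p under 0.05; DESeq2 called 196). Of the 8 members tested, 4 were higher at an unadjusted p under 0.05 (5% of genes). Junb lay at 41.9, 63.7 and 85.1 CPM at day 0 and at 114, 95.7, 139 and 94.9 CPM later, without overlap, a log2 fold change of 0.81 (SE 0.25). Egr1 lay at 38.3, 71.2 and 68.7 CPM at day 0 and at 91.2, 99.4, 112 and 82.0 CPM later, also without overlap, a change of 0.69 (SE 0.22). The share of all genes without overlap was not counted. Arc was higher by 1.58 (SE 0.49) and Nr4a1 by 1.16 (SE 0.44). The adjusted p was 0.52 for each by edgeR. Without sample S7, 1992 genes were called (11.9%), among them Junb (1.04, adjusted p = 0.026), so that 1 library decided this count. Fos (−0.30, SE 0.29) and Fosb (0.05, SE 0.15) stayed within their SE or close to it. Ier2 differed by 0.98 (SE 0.47) and Jund by 0.12 (SE 0.30), beside −0.07 for Atf3 and 0.08 for Jun. Cells of the glial-high cluster made up 0%, 6.52% and 47.9% of the samples at day 0 and 20.9% to 40% of those later. Leaving them out, a restriction chosen after seeing the data, gave 0.72 for Junb, 0.53 for Egr1, 0.99 for Arc and 0.89 for Nr4a1, none called. Egr1 then overlapped, at 86.4 CPM in S7 (0 d) and 81.2 CPM in S5 (7 d).

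Neuron types were taken from clusters, made separately for labelled and added cells with the members, Atf3 and Jun kept out of the genes that define them. The values are descriptions, since the clusters come from the same cells. A cluster is named only from its marker genes, as PEP (peptidergic nociceptors), NP (nonpeptidergic nociceptors), NF (large myelinated neurons), SST (itch neurons with somatostatin), cLTMR (C-fibre touch neurons) or Cold (cold-sensing neurons with Trpm8).

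Labelled NF-like neurons had the lowest Fos, at 67.1 ± 47.4 CPM (SD, n = 12 samples) and 70.8 ± 35.7 CPM (n = 15) in their 2 clusters. PEP3-like neurons had 211 ± 93.0 CPM, above the remaining cells of the same sample in 11 of 11 samples, and the SST-like neurons that express Sst had 232 ± 77.0 CPM, above in 7 of 8. Junb followed the same order, at 24.9 and 38.8 CPM in the NF-like, 92.0 in the PEP3-like and 105 CPM in these SST-like neurons. Fosb was 96.9 ± 41.8 CPM in the Sst-expressing cluster and 14.5 ± 9.67 CPM in the first NF-like cluster.

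Most types high in Atf3 were not those high in Fos. PEP1-like and PEP2-like neurons had 794 and 844 CPM of Atf3, with Fos at 126 and 151 CPM, below the remaining cells in 11 of 16 samples each. PEP3-like neurons and the Sst-expressing SST-like neurons had 243 and 246 CPM of Atf3, below the remaining cells in every one of 11 and 8 samples. Cold-like neurons were high in Atf3 (757 CPM) with Fos at 282 ± 197 CPM (n = 5), a spread that covers most other types.

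A small cluster high in glial genes carried the highest levels of 6 members. It held 42 of 930 labelled cells (4.52%) and 3.65% of their UMIs, but 43.3% of the Nr4a1, 27.6% of the Fosb, 23.8% of the Egr1, 20.6% of the Ier2, 14.5% of the Fos and 13.0% of the Junb UMIs. In 7 samples with at least 3 such cells, Fos was 591 ± 72.3 CPM, Fosb 330 ± 54.6 CPM, Egr1 115 ± 24.1 CPM and Nr4a1 99.3 ± 56.1 CPM, each above the remaining cells in 7 of 7 samples. It held 4.97% of Jund and 4.43% of Atf3 UMIs, near its share of all UMIs. Without this cluster, sample Xin fell from 291 to 118 CPM in Fos and from 116 to 23.1 CPM in Fosb. Whether these were neurons with attached glial cells was not tested.

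In added neurons the order was partly the same. NF-like neurons had Fos at 128 ± 54.7 CPM and Egr1 at 59.0 ± 30.6 CPM, below the remaining cells in 5 of 5 samples. The higher levels were in an unnamed cluster led by Rbp2, Otof and Adora2b (Fos 269 ± 88.7 CPM and Fosb 181 ± 37.6 CPM, above in 6 of 6 samples) and in an NP-like cluster led by Cav1, Rgs5 and Mc4r (Fos 260 ± 96.2 CPM, above in 7 of 7). The cLTMR-like neurons had 105 ± 91.4 CPM of Fos and 21.4 ± 9.83 CPM of Fosb (n = 4). The glial-high cluster of added cells was large (137 of 503 cells) and unlike the labelled one had no excess of Fos, with 32.2% of the Fos UMIs in 33.2% of all UMIs, but held 53.2% of the Ier2 UMIs. It was high in 5 of 7 peptidergic, 6 of 12 PEP1 and 6 of 15 PEP3 markers, against 1, 0 and 3 in the labelled one. Both were left unnamed for their glial genes whatever their neuron markers, so they need not be the same kind of cell.

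**Figure D1:**
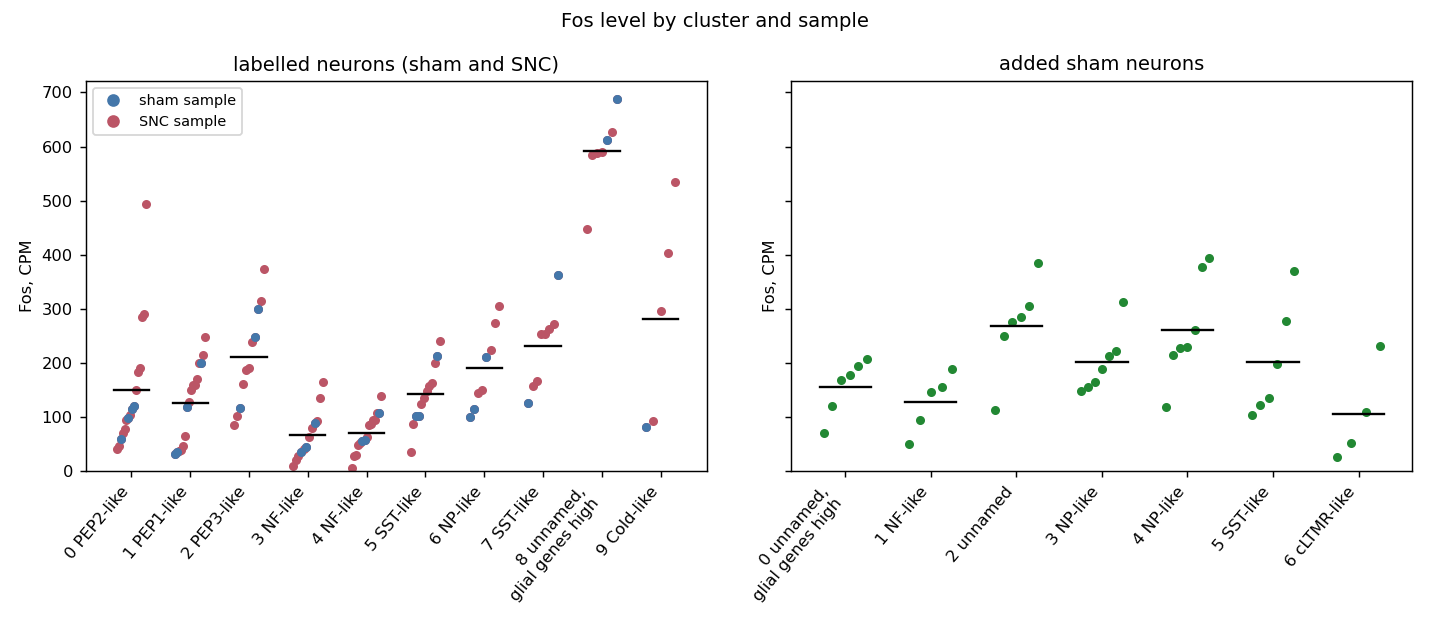
Level of Fos (CPM) in each cluster of labelled and of added neurons, with 1 point per sample and a bar for the mean. The glial-high labelled cluster sits highest (591 CPM) and both labelled NF-like clusters lowest (67.1 and 70.8 CPM).

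Within samples, cells high in Fos were also high in Fosb, Junb and Egr1. Spearman's rho over the cells of a sample, averaged over 23 samples, was 0.55 for Fosb, 0.51 for Junb and 0.50 for Egr1, the 3 highest of 8826 genes with a mean of at least 10 CPM or among the members. Next came Klf6 (0.41), Ccl2 (0.40), Btg2 (0.40), LOC100909712 (0.38), Zfp36 (0.37), Ppp1r15a (0.35) and Klf4 (0.35). Klf6 and Klf4 are Krüppel-like factors, Btg2 restrains growth, Zfp36 destabilises messenger RNA, Ppp1r15a belongs to the stress response and Ccl2 is a chemokine. The other members ranked lower, Nr4a1 at 14 (0.32), Ier2 at 63 (0.23), Jund at 404 (0.15) and Arc at 2764 (0.05). Jun ranked 760 and Atf3 986. These values describe cells that share a library and its depth. Fos CPM was little related to the UMIs of a cell, with a median rho of −0.01 in sham, 0.04 after SNC and −0.01 in added sham.

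The median rho of Fos with Atf3 was negative in labelled and positive in added neurons, but positive in all 3 sets once values were centred on the cluster. The median rho was −0.21 over 4 sham samples (range −0.24 to −0.02), −0.10 over 12 SNC samples (−0.30 to 0.24) and 0.62 over 7 added samples (0.32 to 0.70). For Fos and Jun the medians were −0.13, 0.00 and 0.43. Atf3 and Jun were positively related in all 3 sets, with 0.74, 0.64 and 0.52, and so did Fos and Fosb, with 0.52, 0.50 and 0.64. With each value centred on its cluster, Fos and Atf3 had 0.13 in sham, 0.06 after SNC and 0.64 in added sham.

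**Figure D2:**
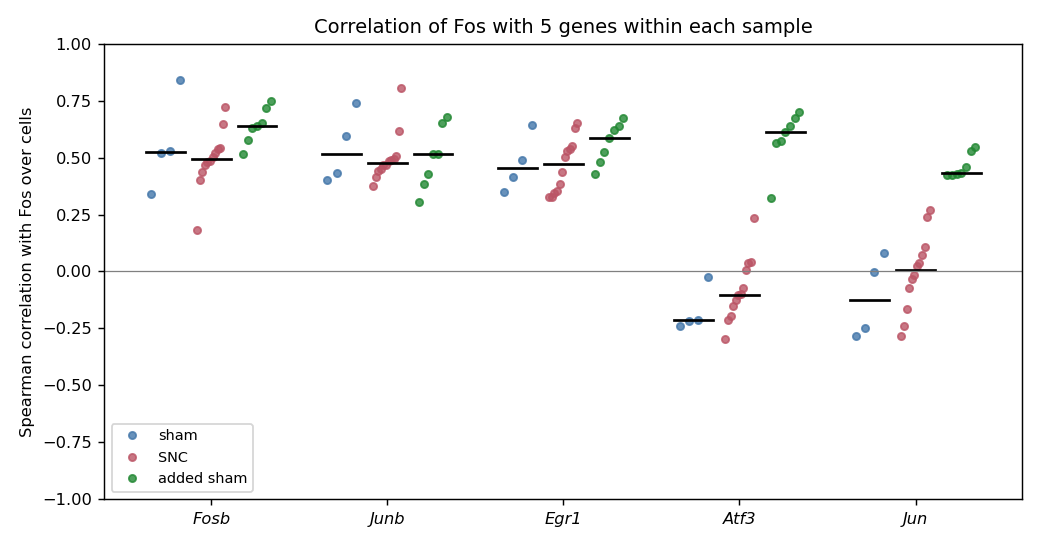
Spearman's rho of Fos with other genes over the cells of each sample (no unit), by sham, SNC and added sham, with 1 point per sample and a bar for the median. Fos with Atf3 sits at −0.30 to 0.24 in labelled samples and at 0.32 to 0.70 in added samples.

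To compare over samples, the cells of each sample were split at its median Atf3 CPM, and the summed counts of Atf3-high and Atf3-low cells were compared with the sample as a block. In added sham Fosb, Egr1, Fos and Junb rose with Atf3. Fosb lay at 161, 181, 173, 219, 145, 176 and 162 CPM in Atf3-high cells and at 52.2, 35.8, 47.4, 48.3, 37.9, 85.8 and 58.1 CPM in Atf3-low cells of samples S1 to S7. Fos lay at 288, 277, 297, 135, 255, 281 and 281 CPM against 149, 75.4, 108, 34.8, 120, 156 and 170 CPM, and Egr1 at 60.8, 101, 129, 193, 122, 136 and 100 CPM against 20.5, 27.7, 48.4, 46.4, 34.0, 68.6 and 39.1 CPM. All 7 samples were higher in Atf3-high cells for each of the 3 genes, and for Fosb both sets of values did not overlap. How common either is among all genes was not counted.

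By edgeR, Fosb rose by 1.79 (SE 0.25, adjusted p = 0.00043), Egr1 by 1.59 (SE 0.24, adjusted p = 0.00096), Fos by 1.27 (SE 0.20, adjusted p = 0.0016) and Junb by 0.97 (SE 0.16, adjusted p = 0.0027) on the log2 scale. Only 34 of 15169 genes were called (0.224%), all of them higher, and 4 of the 8 members tested were among them. Jun, with 0.61 (SE 0.10), was another. Jund (0.26), Nr4a1 (1.47, SE 0.46) and Ier2 (0.81) were higher at an unadjusted p under 0.05 (4.54% of genes) and did not pass the adjusted test, and Arc differed by 0.38 (SE 0.38). The median of the 8 members was 1.12, beside 0.0003 over all genes. Split within each cluster, the 4 calls held (Fosb 1.08, Egr1 1.19, Fos 0.95 and Junb 0.80, with 0.185% of genes called), as they did with any 1 sample left out. They did not hold without the sample as a block (Fosb 1.77, adjusted p = 0.059 by edgeR).

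**Figure D3:**
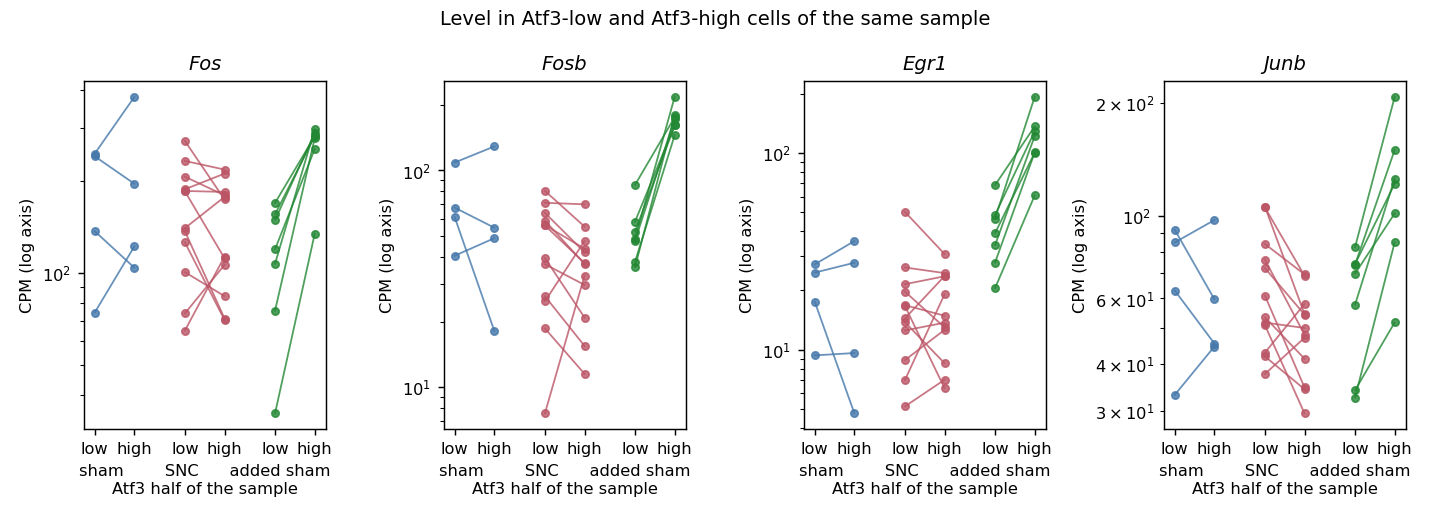
Level of the members (CPM) in Atf3-low and Atf3-high cells, with a line joining both values of each sample. In added sham the Fosb lines run from 35.8 to 85.8 CPM up to 145 to 219 CPM, and in sham and SNC the lines cross.

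Other immediate early genes moved with them. Of 35 tested, 7 were called higher in Atf3-high cells of added sham (Klf6, Gadd45g, Nfil3, Btg2, Csrnp1, Klf4 and Gadd45a), 22 were higher and 0 lower at an unadjusted p under 0.05, and their median was 0.63. Of 12 MAP kinase feedback genes Dusp6 (1.27) was called, and of 10 heat shock genes Dnajb1 (0.52) and Hspa1b (1.08). None of 28 upstream factors was called. Ppp1r15a and Ccl2, 2 of the genes most like Fos, were also among the 34.

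After SNC the same split gave another picture. Fos lay between 70.4 and 219 CPM (median 144) in Atf3-high and between 64.9 and 272 CPM (median 163) in Atf3-low cells, higher in 4 of 12 samples. Fos differed by −0.0047 (SE 0.15), Fosb by −0.09 (SE 0.20), Egr1 by 0.11 (SE 0.20) Junb by −0.22 (SE 0.12), Ier2 by 0.22 (SE 0.27) and Arc by 0.78 (SE 0.32), and none passed the test. Of the 8 members, Jund rose by 0.36 (SE 0.07, adjusted p = 0.00037 by edgeR) and Nr4a1 fell by 1.27 (SE 0.41, adjusted p = 0.025), where 3845 of 15169 genes were called (25.3%), so that 2 of 8 is the background share. The Nr4a1 call was lost when any 1 of samples 14, 15, 16, 17-1, 17-3 and 8 was left out, and both calls were lost with cells split within each cluster (Jund 0.12 and Nr4a1 −0.22). All 7 injury genes were called higher in Atf3-high cells after SNC and also in labelled sham. For Atf3 itself this was set by the split and is not a result. In sham 1397 genes were called (9.21%) and 0 members, with Fos at 0.29 (SE 0.27), Fosb at −0.20 (SE 0.35) and the other 6 between −0.17 (Nr4a1) and 0.43 (Ier2). The difference between SNC and sham was called for 0 of 8 members (0% of genes; 499 genes, 3.29%, at an unadjusted p under 0.05).

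The Atf3 relation was larger in added sham than after SNC for 5 of 8 members by edgeR (8.66% of genes called, 4.52% higher). The difference in log2 fold change was 1.28 for Fos (SE 0.25, adjusted p = 0.0018), 1.88 for Fosb (SE 0.32, adjusted p = 0.00055), 1.19 for Junb (SE 0.20, adjusted p = 0.00045), 1.48 for Egr1 (SE 0.31, adjusted p = 0.0029) and 2.74 for Nr4a1 (SE 0.62, adjusted p = 0.0055). Ier2 (0.59), Jund (−0.11) and Arc (−0.40) did not pass. Against labelled sham it was called for 3 (3.36% of genes called), with 1.99 for Fosb, 1.69 for Egr1 and 0.96 for Junb, while Fos was at 0.98 (adjusted p = 0.11). These contrasts were added after seeing the data. The cell types in the Atf3-high cells differed. After SNC they held 75.9% of PEP1-like and 72.2% of PEP2-like but 12.2% of PEP3-like, 4.88% of NP-like and 2.38% of the Sst-expressing SST-like cells, whereas in added sham they held 75.0% of SST-like, 46.6% and 30.3% of both NP-like clusters and 40.6% of NF-like cells. With cells split within each cluster, the difference from SNC was called for Junb alone (0.86, adjusted p = 0.021, with 0.0132% of genes called), with Fos at 0.72, Fosb at 1.29 and Egr1 at 1.14, and that from labelled sham for none. With thinned cells the difference from SNC was not called for Egr1 (0.75) or Nr4a1 (1.29), with 9.96% of genes called. The Atf3 levels also differed, with 144 to 301 CPM in Atf3-high cells of added sham and 637 to 967 CPM after SNC.

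**Figure D4:**
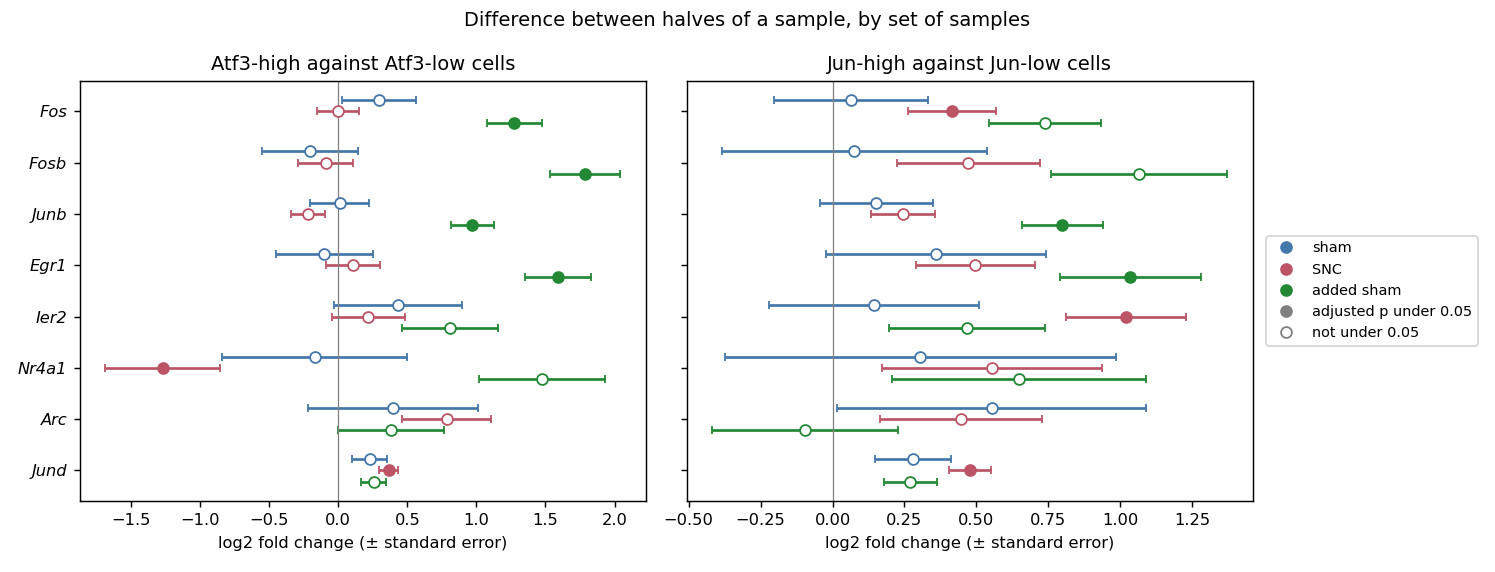
Log2 fold change of each member between Atf3-high and Atf3-low cells and between Jun-high and Jun-low cells, with SE bars, in sham, SNC and added sham, with filled points at an adjusted p under 0.05 by edgeR. In the Atf3 split Fosb, Egr1, Fos and Junb sit at 0.97 to 1.79 in added sham and near 0 after SNC.

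With a split at the median Jun CPM, the median over the 8 members was 0.69 in added sham, below the 1.12 of the Atf3 split. It was 0.48 after SNC and 0.22 in sham, above the 0.05 and 0.12 of the Atf3 split. In added sham Junb rose by 0.80 (SE 0.14, adjusted p = 0.0057 by edgeR) and Egr1 by 1.03 (SE 0.25, adjusted p = 0.033) in Jun-high cells, with 164 of 15129 genes called (1.08%). Egr1 lost its call when any 1 added sample was left out. Fos (0.74, SE 0.19) and Fosb (1.06, SE 0.31) did not pass, though higher in 7 of 7 samples, and Nr4a1 (0.65), Ier2 (0.47), Jund (0.27) and Arc (−0.09) did not pass either. After SNC, Ier2 rose by 1.02 (SE 0.21, adjusted p = 0.00043), Jund by 0.48 (SE 0.07, adjusted p = 1.5e-05) and Fos by 0.42 (SE 0.15, adjusted p = 0.040), where 31.1% of genes were called. The 3 of 8 members called are thus near the background share. Ier2 was higher in Jun-high cells in 12 of 12 samples, at 6.45 to 18.0 CPM against 1.37 to 13.1 CPM. How common 12 of 12 or 7 of 7 samples is among all genes was not counted. The Fos call was lost when any 1 of 6 samples was left out (17-2, 17-3, 19-1, 8, 9 and S), and within clusters Jund alone was called (0.30, with 1.85% of genes called). The other 5 were between 0.24 (Junb) and 0.55 (Nr4a1). In sham 7.52% of genes and 0 of 8 members were called, with values between 0.06 (Fos) and 0.55 (Arc). No member was called for a difference between sets in the Jun split, where 0% of genes were called for SNC against sham (1055 genes, 6.97%, at an unadjusted p under 0.05), 9.37% for added sham against SNC and 3.51% for added sham against sham.

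Depth moved with the split as well. Atf3-high cells had fewer UMIs than Atf3-low cells in 18 of 23 samples, with a median of 242532 against 308426 UMIs per cell. With every cell thinned to 20000 UMIs, the 4 member calls in added sham held (0.591% of genes called), at 1.38 for Fosb, 1.25 for Egr1, 1.05 for Fos and 0.87 for Junb.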

How the data were processed

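Single DRG neurons picked by mouth pipette had been copied with a modified Smart-seq2 protocol that places a UMI and cell barcode at the oligo-dT end. The values are UMI counts per gene and cell, whole numbers deposited by the authors without normalization. Per the submitters' processing notes and the methods, the authors aligned reads with STAR to Rnor_6.0, assigned them with featureCounts of Subread and SAMtools, and collapsed them with UMI-tools. Genes are given by symbol. The files held 1464 cells and 24 libraries, of which 2 are the same DRG sample S.

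Cells were kept if they had 500 or more genes, 1000 or more UMIs and under 5% of UMIs in the 13 Mt- genes, and handled in Python 3.11.15 (SciPy 1.17.1, pandas 2.3.3, NumPy 2.4.6, matplotlib 3.10.9). CPM are UMIs per 1000000 of a sample's summed UMIs. Labelled and added cells were clustered separately with Seurat 5.3.0 (2000 variable genes without members, Atf3 and Jun, 40 components, resolution 0.5) in R 4.3.3. The cells had been picked by hand, and no doublet caller was run. Clusters were described in samples with at least 3 of their cells.

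Counts summed per DRG sample were compared in edgeR 4.0.16 with its quasi-likelihood test (TMM, filterByExpr, Benjamini-Hochberg over all genes tested, called at an adjusted p of 0.05). Labelled groups were fitted together. For Atf3-high and Atf3-low cells (above the own sample's median CPM or not) and for Jun, all 23 samples were fitted together with the sample as block. Alternatives were DESeq2 1.42.0, its size factors, no filter, each sample left out in turn, merged samples, the year of reverse transcription, PEP1-like neurons alone, cells thinned to 20000 UMIs, no block, and medians within clusters. Thinning left out 11 sham, 10, 14 and 9 SNC and 10 added cells. The fits were tested on simulated counts with 200 changed genes. For 1 d against sham, 55.2% of genes changed by 1 on the log2 scale and 75.8% of those changed by 2 were found, and for days 1 to 7 against day 0 of added sham 8.96% and 54.5%.

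Members and gene lists were chosen with earlier results of these data known. By rule, all 9 members are described in each comparison with Atf3 and Jun, where they did not pass partly by their range, the called genes of each list or the 3 of lowest p, and the 10 genes most like Fos; the text names a part of the lists. CPM are shares, so a higher value can reflect lower values elsewhere. In these sums, fewer cells with a gene and less of its RNA per cell cannot be told apart. The dye of each cell was not used here.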

Additional observations from a re-analysis of the deposited data

Results flagged for a closer look

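Over 41 gene and group combinations of 4 to 10 samples, 4 samples stood apart from their group beyond Dixon's 95% critical value, where chance gives about 1 in 20. Fos was at 79.8 CPM in the added sample S4 (3 d), below the other added samples, while Egr1, Junb, Ier2, Arc, Jund and Nr4a1 were each highest among added samples in the same library. Ier2 was at 24.5 CPM in the sham sample Xin, above the other sham samples. Junb was at 91.6 CPM in sample 19-2, above the other samples at 7 d after SNC. Npas4 was at 0.569 CPM in the added sample S2, from 9 UMIs of 1 cell.

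The relation to Atf3 differed between groups by the interaction test of edgeR. Between added sham and SNC the log2 fold change of Atf3-high against Atf3-low cells differed by 1.28 for Fos, 1.88 for Fosb, 1.19 for Junb, 1.48 for Egr1 and 2.74 for Nr4a1. Between added and labelled sham it differed by 1.99 for Fosb, 0.96 for Junb and 1.69 for Egr1. With cells split within each cluster only the Junb difference from SNC was called, and the share of each neuron type among Atf3-high cells differed between the sets. Dye labelling, library series and sequencing run cannot be told apart here.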

How the results depend on the processing

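Among the alternatives run, 187 of all 4127 values changed sign, and no called value was among these 187. Of the values compared with an alternative, 3999 kept their side of the threshold or their size, 81 lost a call and 47 gained one, beside the counts of genes given here. Genes called at 1 d after SNC numbered 9 with DESeq2, 1 with the year as a term and 1 in PEP1-like neurons, and at 3 d 1 each with DESeq2, no filter, thinned cells, the year and PEP1-like neurons, none of them a member; with 1 sample left out, 0 to 1 at both times. Added against labelled sham gave 491 with the later-year sham alone, 3158 in NF-like and 2910 in SST-like neurons. Days 1 to 7 against day 0 gave 196 with DESeq2, 1 with thinned cells and 0 to 1992 with 1 sample left out. The Atf3 split gave in sham 502 (thinned) and 0 (within clusters), leave-one-out 368 to 1536; in SNC 2058 and 310; in added sham 169 (DESeq2) and 52 (thinned), leave-one-out 15 to 44; for added sham minus SNC 2 within clusters; for added sham minus sham 1003 (DESeq2), 226 (thinned) and 0 (within clusters), leave-one-out 156 to 666. The Jun split gave in sham 344 (thinned) and 3 (within clusters), leave-one-out 224 to 1365; in SNC 1277 and 278; in added sham 408 (DESeq2), 305 (no filter), 57 (thinned) and 28 (within clusters), leave-one-out 42 to 300; for SNC minus sham 4 (DESeq2) and 2 (no filter), leave-one-out 0 to 1; for added sham minus SNC 237 (thinned) and 0; for added sham minus sham 947 (DESeq2), 101 (thinned) and 0, leave-one-out 98 to 653. Without the replicate block, the Atf3 split called 4 genes in sham, 1814 in SNC, 2 in added sham, 131 for added sham minus SNC and 0 for added sham minus sham, and the Jun split 1, 2303, 0, 24 and 1. Centred on the cluster, the median rho of Fos with Atf3 turned from negative to 0.13 in sham and 0.0604 after SNC. The cause of these changes was not tested. No paired analysis between groups was run. The replicate numbers of the groups only name samples, and dates of reverse transcription shared between groups were not used as blocks. Both splits are paired within samples. Low depth limits Npas4, Arc and Ier2.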

Other observations

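Beyond the members, the Atf3 split after SNC moved other immediate early genes both ways. Of 35 tested, 12 were called higher in Atf3-high cells by edgeR and 4 lower, where 25.3% of all genes were called. Gadd45a, a stress-induced growth arrest gene, was higher by 1.27 (SE 0.09), Trib1 by 1.33 (SE 0.18), Gadd45g by 0.86 (SE 0.10) and Klf6 by 0.64 (SE 0.08) on the log2 scale. Ier5, Nfil3, Plk2, Myc, Btg2, Klf4, Csrnp1 and Klf10 were higher too. Ccn2 was lower by −1.93 (SE 0.34), and Bdnf, Nptx2 and Gadd45b were lower by −0.57, −0.56 and −0.56. Gadd45a, Gadd45g, Klf6, Nfil3, Btg2, Klf4 and Csrnp1 were called higher in added sham as well. For Gadd45a the difference between both was −0.71 (SE 0.15, adjusted p = 0.0037). Neuron types differed with the split, since after SNC 75.9% of PEP1-like but 2.38% of the Sst-expressing SST-like cells were Atf3-high. These genes were not examined with cells split within each cluster.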
